A study of Danio rerio with 12 samples.

Results

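The enzymes that carry glucose to pyruvate and lactate were followed here as single genes, in zebrafish larvae mutant for yap or for both yap and taz. A list of 35 gene names, zebrafish paralogues of the enzymes from hexokinase to lactate dehydrogenase, gave 33 rows of the 25473 gene identifiers in the count table. These rows belong to 10 enzyme steps. All 33 passed the filter on low counts, as did 19493 genes in all. Many rows carry a family symbol without the zebrafish paralogue letter, so 18 rows share a symbol with another member. These are written with the last digits of their Ensembl identifier (ALDOA-11665 is ENSDARG00000011665), and no a or b name was given to them. No row carried the name pgk1, so phosphoglycerate kinase, which was on the list, is not among the 10 steps. The phosphoglycerate kinase row of the table is named PGK2 and is given only for context.

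The study compared whole larvae of 3 genotypes at 3 days post-fertilization: wild type (WT), yap-/- (the yap mutant) and yap-/-;taz-/- (the yap taz mutant), with 4 libraries of polyadenylated RNA per genotype. Both mutant groups thus carry the yap mutation, and both are compared with the same 4 WT libraries. The kind of mutation, and whether larvae were pooled or came from separate clutches, are not given in the labels, so the p-values cover no more than the spread among these libraries. Total counts ran from 7028251 to 8657381 per library. Levels are given in CPM, counts scaled by library size and composition, as mean ± SD over 4 libraries. They are not corrected for transcript length. Where rows are ranked, summed or given as shares below, this concerns counts and not numbers of transcripts. YAP1, the gene of the first mutation, fell in the yap mutant (log2 fold change -0.56 ± 0.0943 SE, adjusted p = 0.00149 by edgeR's quasi-likelihood test) and in the yap taz mutant (-0.34 ± 0.0939, adjusted p = 0.0126). WWTR1, which encodes Taz, rose against WT in the yap mutant (log2 0.56 ± 0.162, adjusted p = 0.0425; 10.4 ± 1.17 against 7.03 ± 1.33 CPM). It was lower in the yap taz mutant than in the yap mutant (-0.90 ± 0.169, adjusted p = 0.00673); against WT its 4 yap taz libraries measured 4.48 to 6.61 CPM beside 5.40 to 8.34 CPM (adjusted p = 0.156).

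Glycolysis splits glucose into pyruvate in the cytosol and yields ATP and NADH, and lactate dehydrogenase interconverts pyruvate and lactate, which restores NAD+. Its intermediates also feed nucleotide, serine and lipid synthesis. Most steps are served by several genes, many of them duplicated again in the teleost genome, and in mammals the isozymes differ by tissue: PFKM, PGAM2 and ENO3 are forms of muscle, PKLR of liver and red cells. Yap and its relative Taz co-activate transcription and are held in check by the Hippo kinases.

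The glycolytic genes did not move as a block in either mutant. Against WT, 2 members rose and 2 fell in the yap mutant, and 6 rose and 9 fell in the yap taz mutant. Among the 10 steps, lactate dehydrogenase alone held both a higher and a lower call. In the yap taz mutant, hexokinase, aldolase, triose-phosphate isomerase and glyceraldehyde-3-phosphate dehydrogenase held 1 call each, so their calls could not differ in direction. Glucose-6-phosphate isomerase, phosphofructokinase and phosphoglycerate mutase held 2 lower calls each, enolase 2 higher and pyruvate kinase 0. A background share for steps was not taken, so this does not show that the genes of a step move together. In the yap taz mutant LDHA, TPI1-40988, PGAM2, pgam1a and PFKM-60797 were among those that fell, and GAPDH, ENO3, LDHB and HK2 among those that rose.

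Read against all genes tested, 4 of 33 members (12.1%) were called in the yap mutant against WT, where 9.13% of all genes were called. A call means a Benjamini-Hochberg adjusted p under 0.05 in edgeR's quasi-likelihood test. Because the members were chosen with earlier results of these data known, their shares cannot show an excess over all genes. The 2 that rose and the 2 that fell stand beside 5.72% and 3.41% of all genes. In the yap taz mutant against WT the share was 15 of 33 (45.5%), beside 27.7% of all genes, with 13.9% higher and 13.8% lower. Between the mutants 3 of 33 (9.09%) were called, beside 4.18% of all genes. All 3 were lower in the yap taz mutant, beside 2.26% of all genes, and 0 were higher, beside 1.92%. These directions depended on the fit. With the replicate number as a block 4 members were called higher and 3 lower (7.4% of all genes called). DESeq2 called 2 higher and 4 lower (5.49% of all genes). Among the 12102 genes with a mean of at least 10 CPM, which hold 32 of the members, 11.6%, 32.1% and 4.96% were called in the same order. Groups of 4 libraries did not overlap in the yap mutant against WT for 4 members (13.3% of all genes), 2 above (7.93%) and 2 below (5.36%). In the yap taz mutant against WT this held for 12 members (28.9%), 4 above (14.5%) and 8 below (14.4%), and between the mutants for 6 members (10.8%), 6 below (5.53%) and 0 above (5.28%).

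HK2 and ENO1-22456 were called higher in both mutants, and PFKM-60797 lower in both. One member, pgam1b, was called in the yap mutant alone, and 12 in the yap taz mutant alone of the 2 comparisons with WT. The other 17 members were called in no comparison. Shares of all genes with these patterns were not taken, so the counts do not show that the members stand out. Over all genes too, more were called in the yap taz mutant (27.7%) than in the yap mutant (9.13%). A call in 1 mutant and not in the other does not show that the mutants differ; between them, only GPI-103826, pgam1a and LDHA passed the test. The median log2 fold change over the 33 members against WT was -0.05 for the yap mutant and -0.11 for the yap taz mutant, beside 0.004 and 0.008 over all genes tested. Fold changes against WT were positive for 14 and negative for 19 members in the yap mutant, where 50.6% of all genes tested were positive. For the yap taz mutant 12 were positive and 21 negative, beside 51% positive over all genes.

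The members together held 1.06 ± 0.026% of all counts in WT (SD, n = 4), 1.12 ± 0.031% in the yap mutant, and 1.1 ± 0.036% where both genes were mutated. In WT, 20 members averaged above 100 CPM and 12 lay between 10 and 100 CPM.

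**Figure D1:**
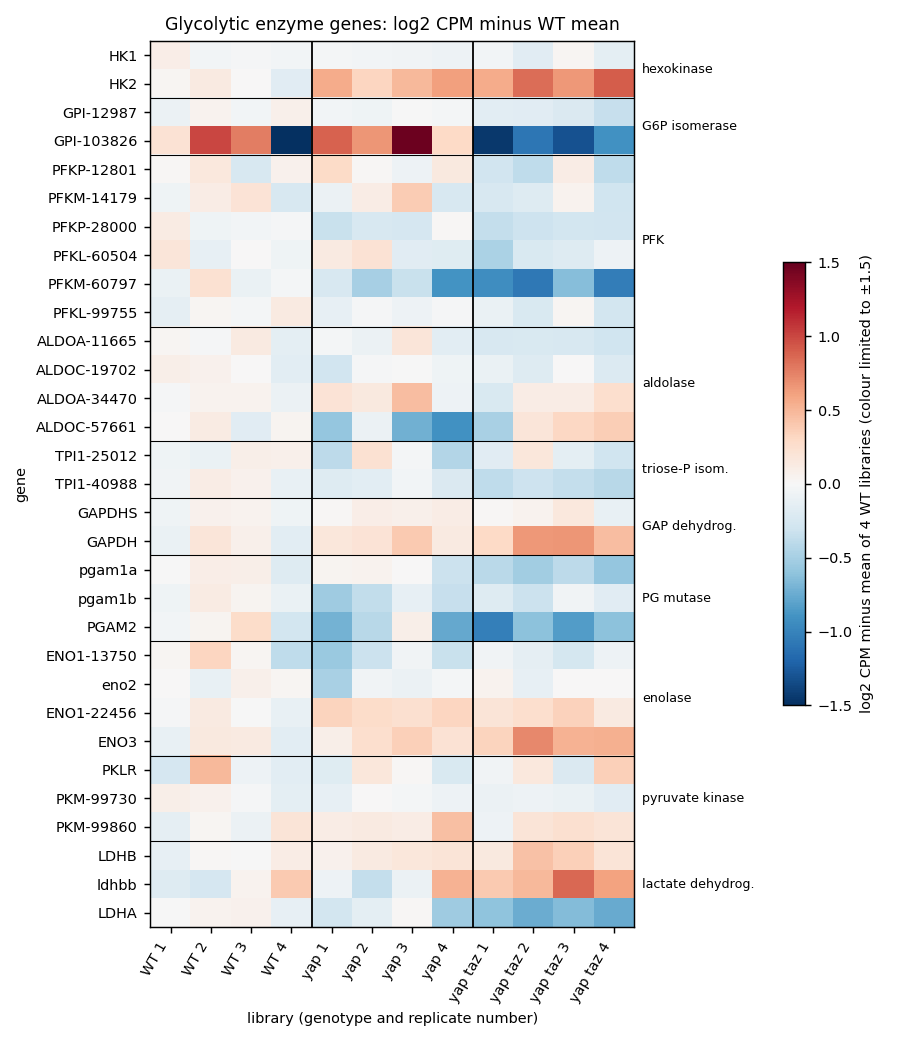
Each row is 1 of 31 members, ordered by enzyme step, and each column 1 of the 12 libraries; colour gives the log2 difference of the library's level from the mean of the 4 WT libraries, limited at both ends of the scale. The rows of LDHA, PGAM2 and PFKM-60797 are low across the 4 yap taz libraries, while HK2, GAPDH and ENO3 are high there.

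**Figure D2:**
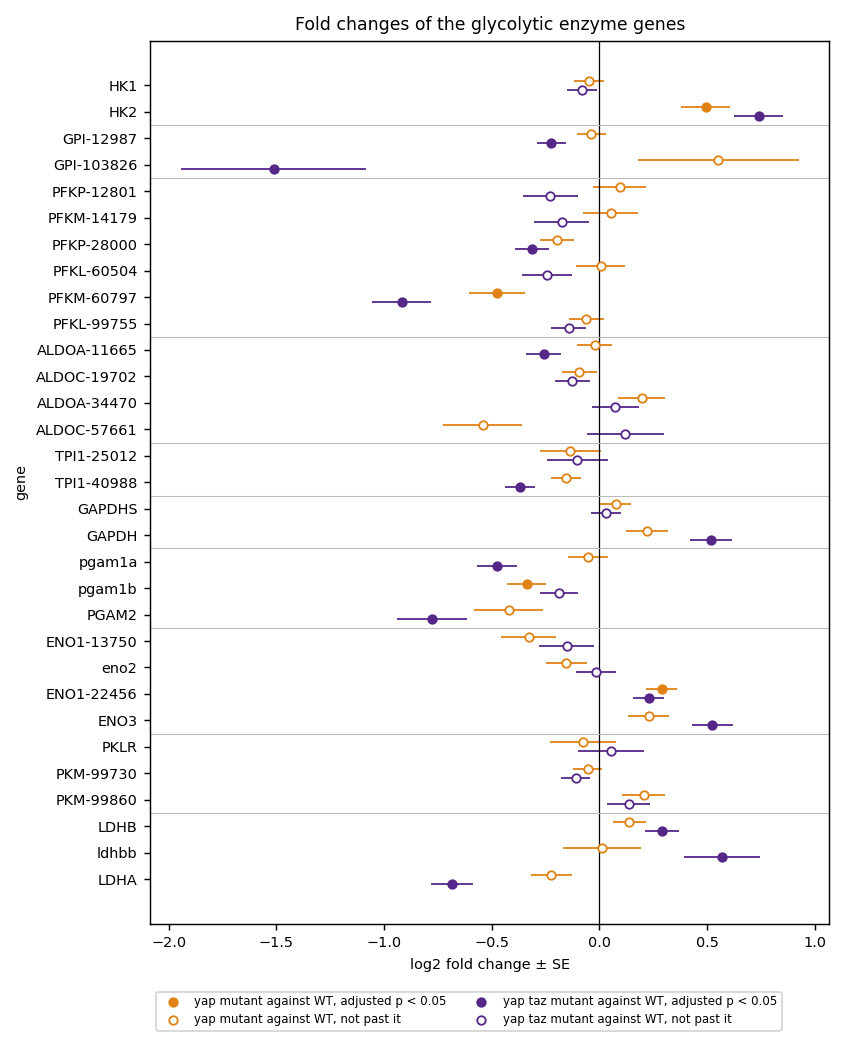
Log2 fold change against WT of 31 members for the yap mutant and for the yap taz mutant, with bars of ± SE from the model over 12 libraries; filled points passed an adjusted p of 0.05. Fold changes run from -0.54 to 0.55 in the yap mutant and from -1.51 to 0.74 in the yap taz mutant.

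Hexokinases trap glucose in the cell as glucose 6-phosphate. HK2 (ENSDARG00000101482), in mammals the isozyme of muscle and fat that binds mitochondria, measured 12.9, 14, 12.7 and 11.2 CPM in the WT libraries. The 4 yap mutant libraries held 18.6, 15.8, 17.7 and 19.3 CPM and the 4 yap taz libraries 18.6, 22.6, 19.8 and 23.8 CPM. Every mutant library was above every WT library. HK2 rose 1.41-fold in the yap mutant (log2 0.49 ± 0.114 SE, adjusted p = 0.0135) and 1.67-fold in the yap taz mutant (0.74 ± 0.113, adjusted p = 0.000159). Both calls held in all 21 alternatives. The mutants differed by 0.25 ± 0.11 (adjusted p = 0.245).

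HK1 (ENSDARG00000039452), the broadly expressed hexokinase, held most counts of this step, at 128 ± 6.45 CPM in WT, 124 ± 1.92 CPM in yap and 121 ± 7.66 CPM in yap taz mutants. Its 95% interval in the yap taz mutant against WT ran from -0.23 to 0.07 on the log2 scale.

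Glucose-6-phosphate isomerase, which converts glucose 6-phosphate to fructose 6-phosphate, is given by 2 rows. GPI-12987, which held most of the counts, measured 261, 287, 271 and 294 CPM in WT and 270, 265, 277 and 272 CPM in the yap mutant. The yap taz values were 249, 247, 239 and 219 CPM. All 4 yap taz libraries were below all 8 others. It fell by 0.22 ± 0.0678 on the log2 scale in the yap taz mutant against WT (adjusted p = 0.0213). Over the 21 alternatives its adjusted p ran from 0.00259 to 0.07, and it missed the threshold without WT 2, WT 4 or yap taz 4. The yap mutant differed from WT by -0.04 (adjusted p = 0.767).

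GPI-103826, the minor row, varied most among the WT libraries, at 19.0, 33.0, 27.9 and 4.16 CPM. The yap mutant libraries held 30.3, 26.1, 45.7 and 20.2 CPM, the yap taz libraries 6.05, 7.75, 6.65 and 8.77 CPM. The yap taz libraries lay below all 4 yap libraries and below 3 of the 4 WT libraries, WT 4 being lower than any of them. The fall was -1.51 ± 0.43 against WT (adjusted p = 0.015) and -2.06 ± 0.422 against the yap mutant (adjusted p = 0.0111), the largest changes among the called members. Without WT 4 the change against WT was -1.86 (adjusted p = 8.45e-05). Over the 21 alternatives the adjusted p ran from 8.45e-05 to 0.16 against WT, missing the threshold with limma-voom (0.16) and without WT 2 (0.0546). It ran from 0.000466 to 0.0527 between the mutants, the highest with limma-voom.

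Phosphofructokinase, the main control point of glycolysis, works as a tetramer whose subunits are encoded by 6 rows. The lower-level muscle-type row PFKM-60797 measured 34.4, 43.4, 34.5 and 36.0 CPM in WT. It stood at 31.3, 26.2, 29.2 and 19.8 CPM in the yap mutant and at 19.4, 17.6, 23.7 and 18.0 CPM in the yap taz mutant. Both mutants lay wholly below WT, and overlapped with each other. It fell by 0.48 ± 0.131 in the yap mutant (adjusted p = 0.0332) and by 0.92 ± 0.136 in the yap taz mutant (adjusted p = 0.000116), to 0.53 of the WT level by the model. The yap taz call held in all 21 alternatives. The yap call ran from 0.00885 to 0.104 and was lost with the 8 libraries fitted alone (0.0544) and without WT 2, WT 3, yap 2 or yap 4.

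PFKP-28000, the platelet-type row with most counts of the 6, measured 138, 121, 122 and 125 CPM in WT. The yap libraries held 100, 107, 107 and 128 CPM, and the yap taz libraries 98.6, 102, 104 and 103 CPM. Every yap taz library lay below WT, while yap 4 lay within the WT range. It fell by 0.31 ± 0.0803 in the yap taz mutant (adjusted p = 0.00835), and the yap mutant differed from WT by -0.20 ± 0.0801 (adjusted p = 0.132; -0.27 without yap 4, adjusted p = 0.0477). The other 4 rows were not called: PFKM-14179 at 75.3 to 103 CPM in WT, PFKL-99755 at 58.8 to 71.1, PFKL-60504 at 28.4 to 35.2 and PFKP-12801 at 19.3 to 25.4. Their log2 fold changes in the yap taz mutant against WT lay between -0.24 and -0.14.

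Aldolase cleaves fructose 1,6-bisphosphate into triose phosphates. ALDOA-11665, of the form found in mammalian muscle and red cells, measured 557, 539, 598 and 492 CPM in WT, 532, 514, 619 and 487 CPM in the yap mutant, and 462, 464, 460 and 442 CPM in the yap taz mutant. In the double mutant the libraries were close together and below all 8 others. It fell by 0.26 ± 0.0818 in the yap taz mutant against WT (adjusted p = 0.0268). The adjusted p ran from 0.00801 to 0.0889 over 21 alternatives and missed the threshold without WT 1, WT 3 or yap taz 4.

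The other ALDOA row and both ALDOC rows gave no call in the fit without a block. The second ALDOA row, ALDOA-34470, ran from 598 to 658 CPM in WT and from 542 to 757 in the yap taz mutant, and ALDOC-19702, of the brain form, from 435 to 516 and from 421 to 485. ALDOC-57661 measured 19.4 ± 1.61, 13.3 ± 3.46 and 21.2 ± 5.07 CPM in the 3 genotypes (yap mutant against WT -0.54 ± 0.184, adjusted p = 0.0766; between the mutants 0.66 ± 0.184, adjusted p = 0.0531). With the replicate number as a block, which the WT and yap libraries' shared deviations allow, it fell by 0.55 (adjusted p = 0.039). Between the mutants DESeq2 called it higher in the yap taz mutant (0.67, adjusted p = 0.0186).

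Triose-phosphate isomerase interconverts both triose phosphates. Its main row, TPI1-40988, measured 440, 494, 476 and 422 CPM in WT, 398, 408, 445 and 394 CPM in the yap mutant and 350, 369, 356 and 343 CPM in the yap taz mutant. All 4 yap taz libraries were lower than all other libraries, and the yap libraries overlapped WT. It fell by 0.37 ± 0.0711 against WT (adjusted p = 0.00109), a call that held in all 21 alternatives, and the yap mutant differed from WT by -0.15 ± 0.0709 (adjusted p = 0.183). The minor row TPI1-25012 stayed between 14.4 and 22.8 CPM across all 12 libraries and was not called.

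Glyceraldehyde-3-phosphate dehydrogenase, the NADH-yielding step, has 2 rows, of which GAPDH (ENSDARG00000043457) held most counts. It measured 1315, 1603, 1489 and 1270 CPM in WT, 1586, 1634, 1850 and 1553 CPM in the yap mutant and 1734, 2217, 2229 and 1949 CPM in the yap taz mutant. Each yap taz library exceeded each WT library, and the yap libraries overlapped both. GAPDH rose by 0.52 ± 0.0971 in the yap taz mutant (adjusted p = 0.000885), a call kept in all 21 alternatives. In the yap mutant its fold change was 0.22 ± 0.097 (adjusted p = 0.162), which passed only with the replicate block (0.23, adjusted p = 0.0385). GAPDHS (ENSDARG00000039914), whose mammalian counterpart is the sperm form, was at 918 ± 44.1, 967 ± 30.0 and 938 ± 70.9 CPM, with an interval of -0.12 to 0.18 in the yap taz mutant against WT.

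PGK2 (ENSDARG00000054191), the phosphoglycerate kinase row, is not a member. It rose from 417 ± 27.6 CPM in WT to 517 ± 17.6 in the yap mutant (log2 0.31 ± 0.0681, adjusted p = 0.00989) and 529 ± 21.7 in the yap taz mutant (0.34 ± 0.0681, adjusted p = 0.00134).

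Phosphoglycerate mutase, which moves the phosphate from the third to the second carbon, had 3 rows; each was called in at least 1 comparison, and each of their calls was lower. The row pgam1a (ENSDARG00000005423) measured 110, 119, 118 and 97.2 CPM in WT, 114, 115, 111 and 88.7 CPM in the yap mutant and 84.0, 77.0, 84.4 and 74.1 CPM in the yap taz mutant. The yap taz libraries lay below all 8 others. It fell by 0.48 ± 0.0941 against WT (adjusted p = 0.00133) and by 0.42 ± 0.0942 against the yap mutant (adjusted p = 0.0174). The call between the mutants ran from 0.00184 to 0.061 and was lost without yap 1, yap 2, yap taz 2 or yap taz 4.

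Its paralogue pgam1b (ENSDARG00000014068) measured 128, 147, 138 and 125 CPM in WT, 93.0, 104, 123 and 106 CPM in the yap mutant and 117, 107, 129 and 119 CPM in the yap taz mutant. Here the yap libraries lay below WT, and the yap taz libraries overlapped both. It fell by 0.34 ± 0.0902 in the yap mutant (adjusted p = 0.0282), and the yap taz mutant differed from WT by -0.19 ± 0.09 (adjusted p = 0.133). The yap call ran from 0.00465 to 0.0973 over the alternatives and was lost with the 8 libraries alone (0.0516) and without WT 2, WT 3, yap 1, yap 2 or yap 4.

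PGAM2 (ENSDARG00000057571), the muscle form in mammals, measured 153, 162, 191 and 130 CPM in WT, 96.8, 119, 167 and 92.8 CPM in the yap mutant and 77.7, 103, 88.0 and 103 CPM in the yap taz mutant. All WT libraries exceeded the yap taz libraries, whereas yap 3 lay among WT and above the other yap libraries. It fell by 0.78 ± 0.163 in the yap taz mutant (adjusted p = 0.00205), a call kept in all 21 alternatives. In the yap mutant the value was -0.42 ± 0.161 (adjusted p = 0.113). That value passed with the replicate block (-0.44, adjusted p = 0.0278) and without yap 3 (-0.63, adjusted p = 0.00492).

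**Figure D3:**
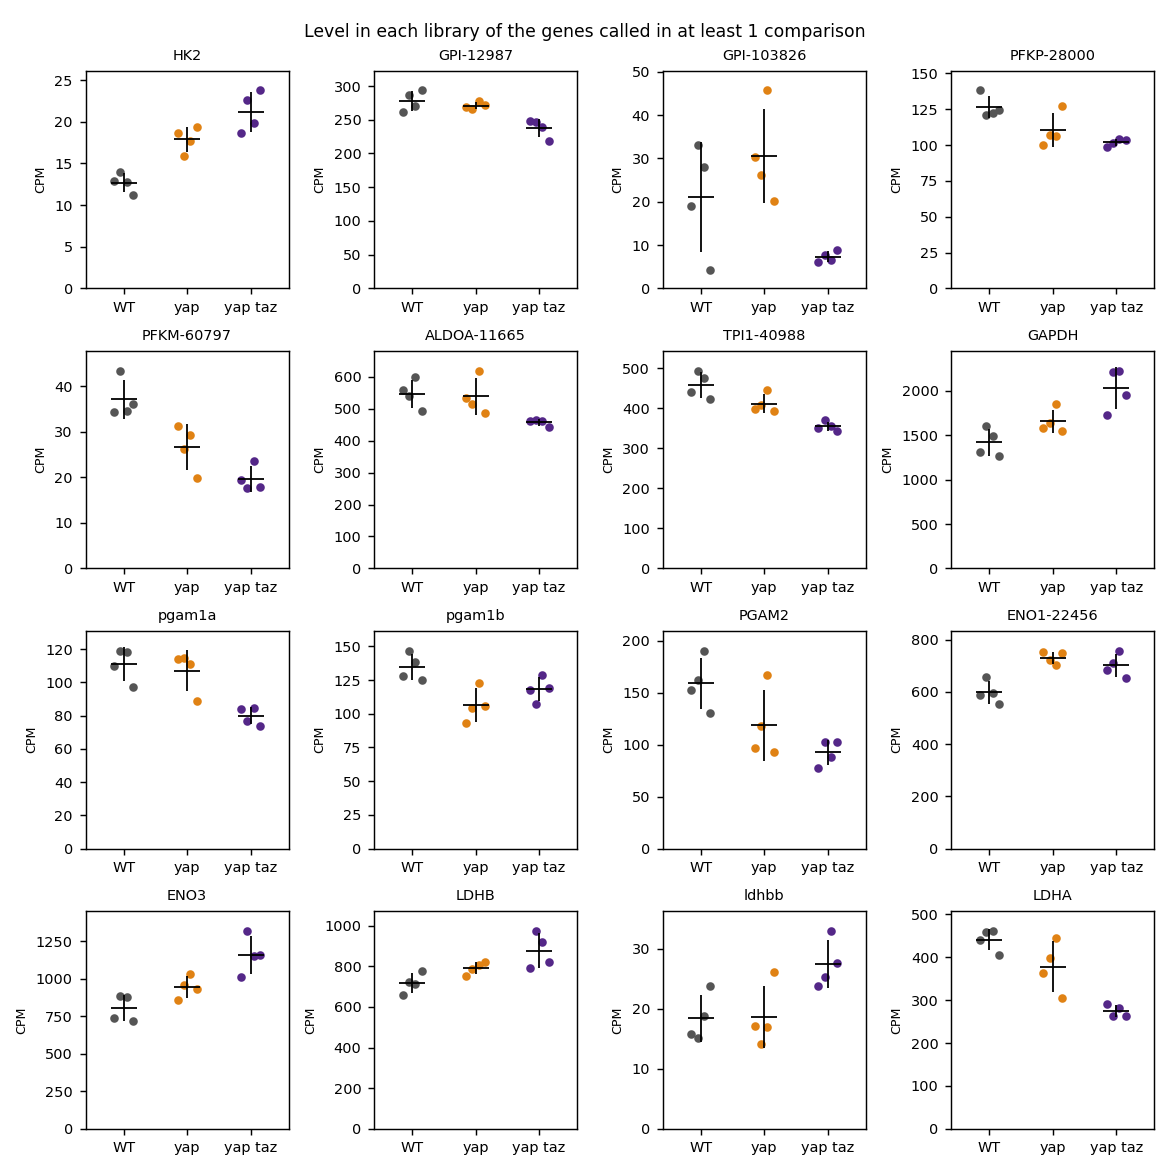
CPM of called members in each library, with 1 point per library and a bar at the mean ± SD (n = 4 per genotype); each panel's axis starts at 0. The yap taz libraries of LDHA (262 to 291 CPM) lie below all others, and those of HK2 (18.6 to 23.8 CPM) above all WT libraries.

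Enolase forms phosphoenolpyruvate. ENO1-22456, a row of the ubiquitous form, measured 588, 657, 596 and 552 CPM in WT, 753, 721, 704 and 749 CPM in the yap mutant and 683, 712, 758 and 653 CPM in the yap taz mutant. The yap libraries all exceeded WT; among the yap taz libraries, the lowest was just under WT 2. It rose by 0.29 ± 0.072 in the yap mutant (adjusted p = 0.0204) and by 0.23 ± 0.072 in the yap taz mutant (adjusted p = 0.0253). The first call ran from 0.00139 to 0.0607 and was lost without WT 3, yap 1 or yap 4. The second ran from 0.00627 to 0.0808 and was lost without a filter and without WT 1, WT 3, WT 4, yap taz 2 or yap taz 3.

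ENO3 (ENSDARG00000039007), the muscle enolase of mammals, measured 741, 885, 878 and 720 CPM in WT, 856, 958, 1032 and 934 CPM in the yap mutant and 1010, 1318, 1152 and 1159 CPM in the yap taz mutant. Every yap taz library exceeded every WT library, and the lowest of them lay under the highest yap library. It rose by 0.52 ± 0.0947 in the yap taz mutant (adjusted p = 0.000642), in all 21 alternatives too, and its yap value was 0.23 ± 0.0945 (adjusted p = 0.139; 0.0368 with the replicate block). ENO1-13750 at 73.9 ± 14.4 CPM in WT and eno2 (ENSDARG00000014287), the neuronal form, at 130 ± 7.22 CPM were called in no comparison without a block. With the block and the 8 libraries alone, a fit chosen after seeing the data, ENO1-13750 was lower in the yap mutant than in WT (-0.32, adjusted p = 0.0442).

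Pyruvate kinase, which makes pyruvate and ATP, gave no call without a block. PKM-99860, the row with most of its counts, measured 464 ± 47.9 CPM in WT, 535 ± 66.1 CPM in yap and 510 ± 48.9 CPM in yap taz mutants, and PKM-99730 measured 293 ± 20.7, 282 ± 10.6 and 271 ± 7.52 CPM. The liver and red cell form PKLR (ENSDARG00000042010) measured 44.6 ± 11.2, 42.2 ± 5.40 and 46.1 ± 8.01 CPM. The 95% intervals of the yap taz mutant against WT were -0.07 to 0.35 for PKM-99860, -0.26 to 0.03 for PKM-99730 and -0.27 to 0.38 for PKLR. With the block and the 8 libraries alone, PKM-99860 was higher in the yap mutant than in WT (0.20, adjusted p = 0.0425).

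Lactate dehydrogenase held calls in opposite directions. LDHA (ENSDARG00000101251), the muscle-type subunit in mammals, measured 440, 458, 462 and 406 CPM in WT, 364, 398, 445 and 304 CPM in the yap mutant and 291, 264, 282 and 262 CPM in the yap taz mutant. All 4 yap taz libraries were below all others, and the yap libraries ran from just above them into the WT range. LDHA fell by 0.68 ± 0.0973 in the yap taz mutant against WT (adjusted p = 8.26e-05) and by 0.46 ± 0.0971 against the yap mutant (adjusted p = 0.0129). Both calls held in all 21 alternatives. The yap mutant differed from WT by -0.22 ± 0.0966 (adjusted p = 0.159), by -0.31 without yap 3 (adjusted p = 0.0266) and by -0.24 with the block and the 8 libraries alone (adjusted p = 0.0352).

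LDHB (ENSDARG00000019644), of the heart-type subunit, measured 658, 724, 713 and 776 CPM in WT, 752, 786, 806 and 819 CPM in the yap mutant and 794, 974, 920 and 821 CPM in the yap taz mutant. The yap taz libraries all exceeded WT and overlapped the yap libraries. It rose by 0.29 ± 0.0784 in the yap taz mutant (adjusted p = 0.0114). Over the alternatives the adjusted p ran from 0.00259 to 0.0518, the highest without yap taz 2. The low-level row ldhbb (ENSDARG00000071076) measured 15.8, 15.1, 18.8 and 23.8 CPM in WT, 17.1, 14.1, 17 and 26.1 CPM in the yap mutant and 23.7, 25.4, 33.0 and 27.5 CPM in the yap taz mutant. Library 4 was highest in both WT and the yap mutant, where it reached the yap taz range. It rose by 0.57 ± 0.177 in the yap taz mutant (adjusted p = 0.0245), with an adjusted p of 0.00206 to 0.0831 that missed the threshold without WT 1, WT 2, yap taz 3 or yap taz 4.

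Summed over its members, each step was then set side by side between genotypes, as a description without a test. In the yap taz mutant the summed CPM lay above every WT library at glyceraldehyde-3-phosphate dehydrogenase (2970 ± 282 against 2338 ± 197) and enolase (2056 ± 135 against 1608 ± 134). It lay below every WT library at glucose-6-phosphate isomerase (246 ± 12.6 against 299 ± 16.3), phosphofructokinase (306 ± 21.5 against 372 ± 8.45), triose-phosphate isomerase (373 ± 13.6 against 478 ± 32.3) and phosphoglycerate mutase (291 ± 9.91 against 405 ± 41.7). The other 4 steps overlapped. Lactate dehydrogenase summed to 1178 ± 42.5 CPM in WT, 1187 ± 60.8 CPM in yap and 1180 ± 81.7 CPM in yap taz mutants, while LDHA made up 37.5 ± 2.64%, 31.7 ± 3.72% and 23.4 ± 2.21% of those counts. HK2 made up 8.91 ± 0.778%, 12.5 ± 1.04% and 14.6 ± 1.86% of the hexokinase counts. These shares are of counts without length correction and reuse the members' values above. No step's sum separated the 4 yap libraries from the 4 WT libraries. Within same-numbered WT and yap libraries, the yap sum was higher in all 4 pairs at 4 steps (aldolase, glyceraldehyde-3-phosphate dehydrogenase, enolase and pyruvate kinase) and lower in all 4 at 3 steps (phosphofructokinase, triose-phosphate isomerase and phosphoglycerate mutase). Sums of other genes were not taken, so these counts of steps have no background share and do not show that the steps stand out. Of all single genes tested, 28.9% did not overlap between the yap taz mutant and WT.

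**Figure D4:**
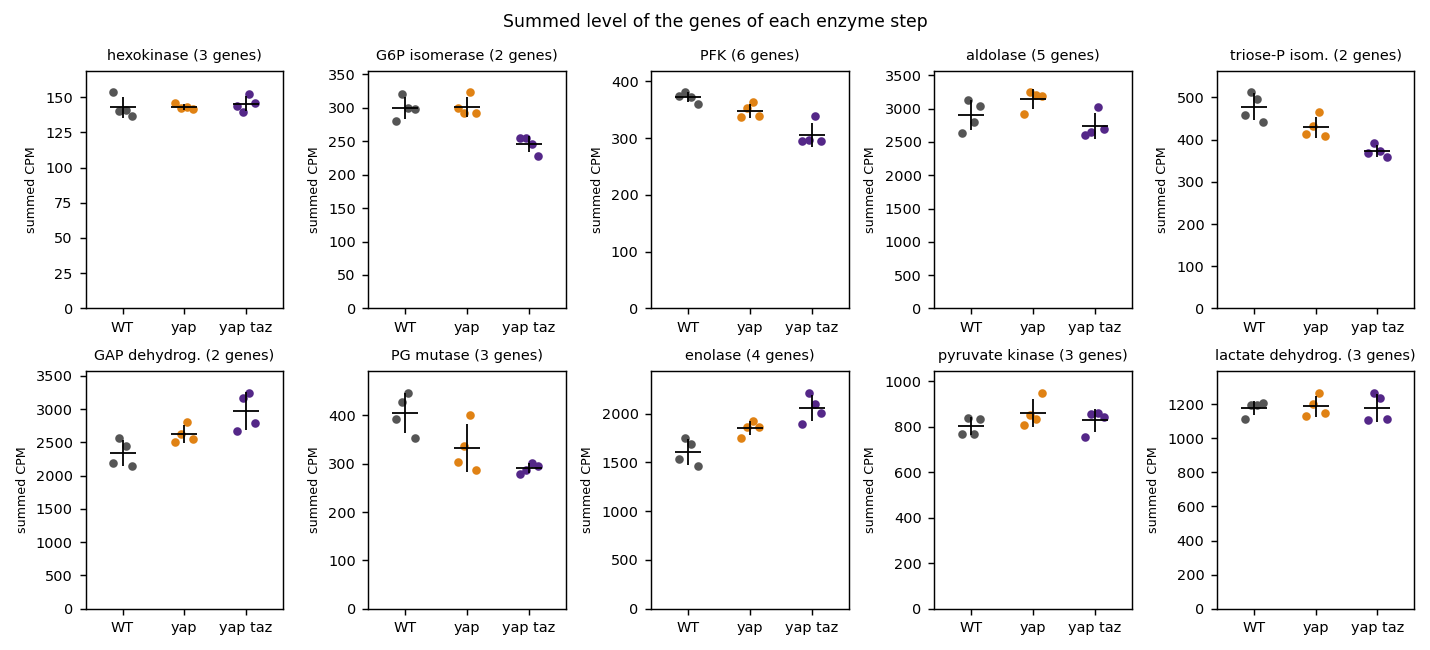
Summed CPM of the members of each of the 10 steps, 1 point per library with the mean ± SD (n = 4 per genotype); each axis starts at 0. Lactate dehydrogenase sums overlap between all genotypes, and those of triose-phosphate isomerase lie lowest in the yap taz mutant (373 ± 13.6 CPM against 478 ± 32.3 in WT).

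Paralogues of 1 symbol or family were compared by their log2 ratio in each library, for 11 pairs and 3 comparisons. With 4 libraries a side an exact two-sided permutation test cannot go below p = 0.0286, and none of the 33 tests passed after Benjamini-Hochberg adjustment. In 6 of them the groups did not overlap, each at an adjusted p of 0.157. In the yap taz mutant against WT these were PFKM (PFKM-14179 over PFKM-60797, log2 ratio 2.01 ± 0.085 against 1.27 ± 0.222) and pgam1 (pgam1a over pgam1b, -0.56 ± 0.101 against -0.28 ± 0.067). In the yap mutant against WT they were ALDOA (ALDOA-11665 over ALDOA-34470, -0.42 ± 0.088 against -0.22 ± 0.080) and ENO1 (ENO1-13750 over ENO1-22456, -3.64 ± 0.249 against -3.03 ± 0.191). Between the mutants they were GPI (GPI-12987 over GPI-103826, 4.99 ± 0.298 against 3.20 ± 0.473) and pgam1 (-0.56 ± 0.101 against 0.01 ± 0.25). Near-identical paralogues can share reads, and how such reads were counted is not given, so these ratios are uncertain. Ratios of other gene pairs were not taken. Of all single genes tested, 13.3% did not overlap in the yap mutant against WT, 28.9% in the yap taz mutant against WT and 10.8% between the mutants.

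**Figure D5:**
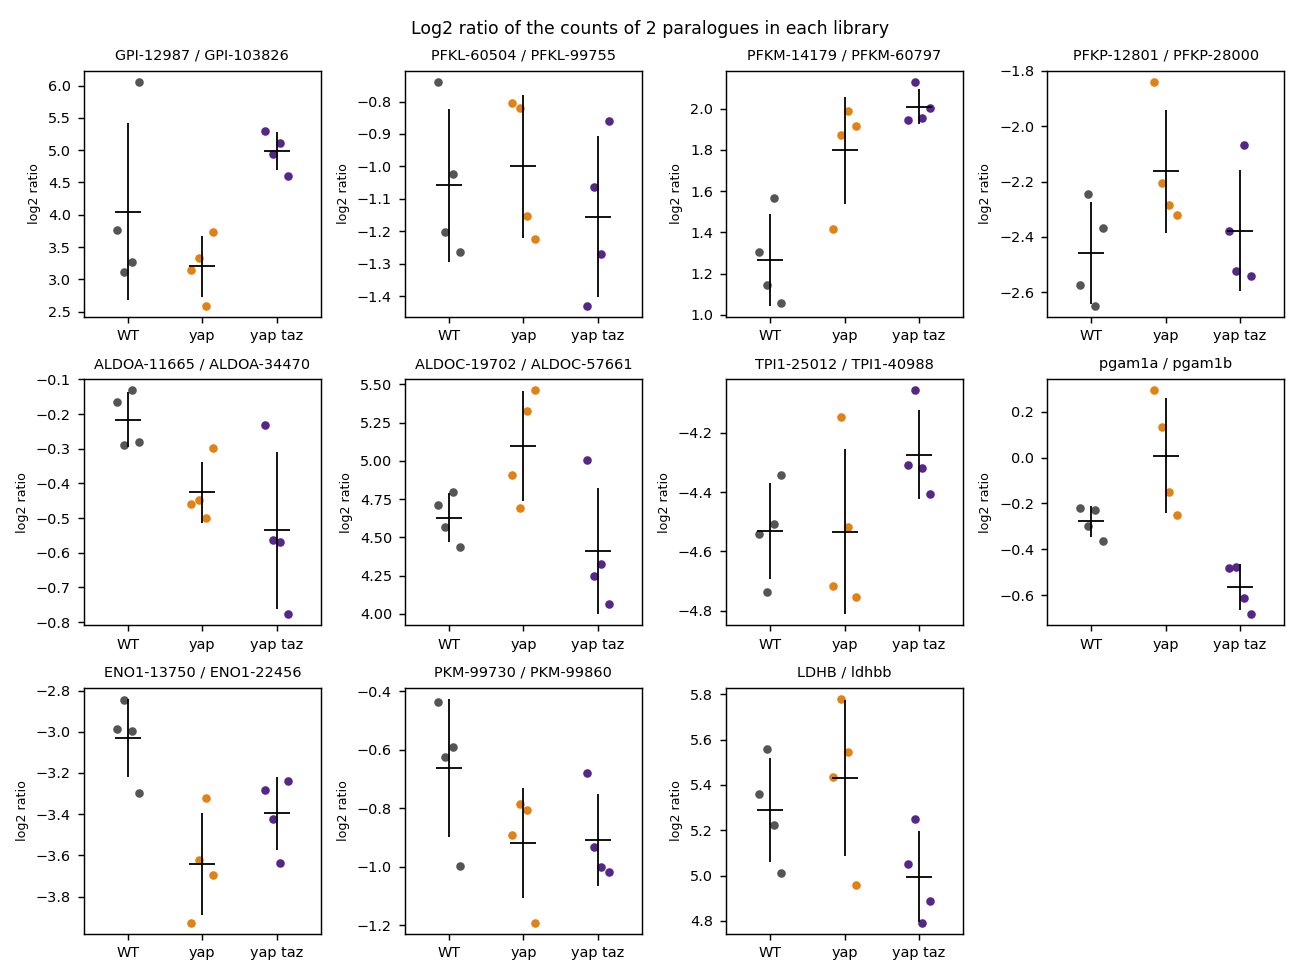
Log2 ratio of the first over the second paralogue of each of the 11 pairs, 1 point per library with the mean ± SD (n = 4 per genotype). The PFKM ratio lies near 2.01 in the yap taz mutant and 1.27 in WT without overlap, and no ratio passed the adjusted test.

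Genes around the pathway gave further calls, from lists described by counts without a test of the list. Their counts read against 5.72% of all genes called higher and 3.41% lower in the yap mutant, and 13.9% and 13.8% in the yap taz mutant. The lists were chosen with earlier results of these data known, so their counts cannot show an excess over all genes. Among 9 tested genes of gluconeogenesis, 2 rose and 1 fell in the yap mutant, and 4 rose and 1 fell in the yap taz mutant (median log2 fold change 0.02 and 0.37, beside 0.004 and 0.008 over all genes). PCK1 (ENSDARG00000013522), the cytosolic phosphoenolpyruvate carboxykinase, rose from 135 ± 23.9 CPM in WT to 335 ± 32.9 CPM in yap and 630 ± 73.5 CPM in yap taz mutants (log2 1.31 ± 0.122, adjusted p = 8.25e-06, and 2.23 ± 0.125, adjusted p = 1.46e-08), and was higher in the yap taz than in the yap mutant (0.91 ± 0.12, adjusted p = 0.000783). FBP2 (ENSDARG00000012366), the muscle fructose bisphosphatase in mammals, fell from 113 ± 9.4 CPM to 52.5 ± 20.6 and 36.8 ± 14.3 (-1.10 ± 0.273, adjusted p = 0.0201, and -1.61 ± 0.28, adjusted p = 0.000482). Other rows of this enzyme did not fall with it. The row fbp1a, at 29.9 ± 3.74 CPM in WT, rose by 0.62 ± 0.106 in the yap taz mutant (adjusted p = 0.00042). In the yap mutant fbp1a was not called (0.26, adjusted p = 0.135). The row fbp1b, at 104 ± 9.24 CPM in WT, was called in neither mutant (0.02, adjusted p = 0.903, and -0.16, adjusted p = 0.252). The row g6pc1a.1, a catalytic subunit of glucose 6-phosphatase, held a mean of 12.4 CPM in WT. It rose by 0.71 ± 0.147 and 0.99 ± 0.146 (adjusted p = 0.00704 and 0.000111). G6PC1, the row with more counts, held 167 ± 41.2 CPM in WT. It was not called in the yap mutant (-0.08, adjusted p = 0.77). In the yap taz mutant G6PC1 rose by 0.45 ± 0.148 (adjusted p = 0.0315). G6PC3, at a mean of 6.6 CPM in WT, was called in neither mutant (-0.30, adjusted p = 0.454, and -0.15, adjusted p = 0.672).

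Of 17 tested regulators of the glycolytic rate, 4 rose and 0 fell in the yap mutant, and 7 rose and 1 fell in the yap taz mutant (medians 0.16 and 0.23). PFKFB3 (ENSDARG00000001953), which makes the activator of phosphofructokinase, rose from 17.4 ± 2.68 CPM to 42.5 ± 10.3 and 71.2 ± 13.3 (1.29 ± 0.174, adjusted p = 0.000252, and 2.03 ± 0.172, adjusted p = 5.91e-07). TXNIP (ENSDARG00000036107), a restraint on glucose uptake in mammals, rose from 248 ± 26.5 CPM to 477 ± 68.2 and 697 ± 70.9 (0.95 ± 0.108 and 1.49 ± 0.109). A second TXNIP row, ENSDARG00000070000 at 28.9 ± 2.87 CPM in WT, was not called in the yap mutant (0.12, adjusted p = 0.438). That row rose by 0.54 ± 0.0877 in the yap taz mutant (adjusted p = 0.00029). Between the mutants PFKFB3 was higher in the yap taz mutant (0.74 ± 0.16, adjusted p = 0.0143). So were both TXNIP rows (0.55 ± 0.106, adjusted p = 0.00821, and 0.42 ± 0.0875, adjusted p = 0.0122). By contrast, the phosphofructokinase rows themselves gave only lower calls.

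Among 24 tested genes of pyruvate and lactate use, 2 rose and 1 fell in the yap mutant, and 4 rose and 6 fell in the yap taz mutant (medians 0.00 and -0.14). The MPC2 row ENSDARG00000037679, of a subunit of the mitochondrial pyruvate carrier, held 19.0 ± 2.03 CPM in WT. It rose by 0.48 ± 0.0972 and 0.92 ± 0.0958 (adjusted p = 0.00602 and 4.32e-06). The MPC2 row with more counts, ENSDARG00000024478 at 121 ± 6.81 CPM in WT, was not called (-0.04, adjusted p = 0.866, and -0.18, adjusted p = 0.232). PDK2 (ENSDARG00000059054), a kinase that inhibits pyruvate dehydrogenase, rose by 1.46 ± 0.217 in the yap taz mutant (adjusted p = 0.000123), from 24.1 ± 9.45 CPM in WT. The PDK2 row with more counts, ENSDARG00000020876 at 77.3 ± 8.96 CPM in WT, rose there by 0.40 ± 0.107 (adjusted p = 0.0112). Of the genes that fell, slc16a7 held 3.70 ± 0.534 CPM in WT (-0.86 ± 0.216, adjusted p = 0.0211, and -1.24 ± 0.227, adjusted p = 0.000737). The SLC16A1 row ENSDARG00000016963, at 10.5 ± 1.18 CPM in WT, fell in the yap taz mutant (-0.62 ± 0.153, adjusted p = 0.00595). A second SLC16A1 row, ENSDARG00000068572 at 45.4 ± 6.34 CPM in WT, rose in the yap mutant alone (0.39 ± 0.114, adjusted p = 0.0442). Of 13 side-branch genes, 1 rose in the yap mutant, and 1 rose and 2 fell in the yap taz mutant; PHGDH (ENSDARG00000001873), which opens serine synthesis, rose by 0.57 ± 0.11 and 0.61 ± 0.11 (adjusted p = 0.00413 and 0.000624).

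Marker genes of several tissues moved in the same libraries, and in whole-larva RNA fewer cells of a type and less RNA per cell cannot be told apart. The marker counts read against the same shares of all genes, 5.72% higher and 3.41% lower in the yap mutant and 13.9% and 13.8% in the yap taz mutant. These lists too were chosen with earlier results known, so their counts cannot show an excess. Of 18 fast muscle markers, 3 rose and 1 fell in the yap mutant, and 10 rose and 2 fell in the yap taz mutant; their summed level was 53694 to 62075 CPM in WT, 67600 to 76265 in the yap mutant and 67026 to 91837 in the yap taz mutant. Of 10 lens markers 6 fell in yap and 7 in yap taz mutants, with sums of 2806 to 3844, 2334 to 2792 and 1653 to 2334 CPM. Intestine markers fell in 2 of 10 and 8 of 10, at 955 to 1967, 723 to 1252 and 614 to 755 CPM.

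Photoreceptor markers fell in 12 of 18 in each mutant, with sums of 4170 to 5986 CPM in WT, 2524 to 3538 in the yap mutant and 2675 to 3667 in the yap taz mutant. Neuron markers fell in 3 of 12 and 4 of 12, at 3318 to 3476, 2583 to 3123 and 2703 to 3035 CPM. Of 14 hepatocyte markers 6 rose and 2 fell in the yap mutant, and 6 rose and 4 fell in the yap taz mutant, with sums of 10917 to 12922, 12043 to 13878 and 11970 to 14417 CPM. Of 6 erythrocyte markers 1 rose in the yap mutant and 2 fell in the yap taz mutant, with overlapping sums of 644 to 1065, 666 to 917 and 650 to 852 CPM. No marker gene was at 0 in all libraries. The part of these tissue markers in the changes of the glycolytic genes was not tested.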

How the data were processed

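Whole-larva polyadenylated RNA was sequenced on an Illumina HiSeq, per the labels' protocols. The deposited table holds the authors' raw counts per gene identifier for 12 libraries, 4 per genotype, grouped by their titles. STAR 2.3.0e and HTSeq 0.6.0 are named in the submitters' processing notes; genome build, annotation and strandedness: not given in the sources used here. Symbols came from a supplied name table, and paralogues with near-identical sequence could share reads.

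From these counts, genes passing filterByExpr (minimum count 10, minimum total 15) were scaled by TMM and fitted over all 12 libraries with 1 coefficient per genotype by edgeR 4.0.16 (limma 3.58.1, R 4.3.3). Quasi-likelihood tests were two-sided, with Benjamini-Hochberg adjustment over all 19493 genes at 0.05. The procedure was tested on simulated data. The members and lists were chosen with earlier results of these data known. Members called in at least 1 comparison are given by library, other members by group. Neighbouring genes are given by value only if called, at most the 4 of smallest p per list and comparison, and part of these are not printed. For context, the uncalled MPC2 row, the PDK2 row with more counts and the rows G6PC1, G6PC3 and fbp1b are given beside them. Values of 2 members are not reported here; they stay in the counts and sums over members. Lists are described by counts. Of 150 names in the lists, 15 matched no row. Paralogue ratios used a pseudocount of 2 counts scaled to library size. Intervals are 95% from the fit. A count of 0 allows up to 3 counts, or 0.334 to 0.443 CPM per library (counting error only).

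Alternatives in edgeR were relative log expression and upper-quartile scaling, no filter, and a filter of 1 CPM in 4 libraries. Further ones were the 8 libraries of a comparison alone, limma-voom, DESeq2 1.42.0 and each library left out. The last were the replicate number as a block, and that block with the 8 libraries alone. Same-numbered WT and yap libraries deviated together across genes, with correlations of 0.180, 0.306, 0.282 and 0.388. The largest with another number were 0.111, 0.0506, 0.134 and 0.0465. The block is therefore given beside those results where it changes a call. Correlations for WT with yap taz were 0.166, 0.103, 0.0717 and -0.00482, beside at most 0.158, 0.143, 0.0337 and 0.0422 with another number. Between the mutants they were 0.0512, -0.00323, 0.0648 and 0.0206, beside at most 0.0476, 0.0626, 0.0481 and 0.0647. Those numbers were not taken to pair the libraries. The replicate block was still fitted over all 12 libraries, so it also grouped the yap taz libraries by number. For the yap mutant against WT, the block with the 8 libraries alone, chosen after seeing the data, left them out. By that quasi-likelihood fit GAPDH, ENO3, PGAM2 and ALDOC-57661 were called too (adjusted p = 0.0368, 0.0266, 0.00125 and 0.00682).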

Additional observations from a re-analysis of the deposited data

Results flagged for a closer look

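Of 126 groups of 4 libraries examined, over the members' levels and the paralogue ratios in each genotype, 3 held a library far from its fellows. That is fewer than the about 1 in 20 that chance gives. All 3 lay in the yap mutant and 2 of them in library 4. The row pgam1a measured 88.7 CPM in yap 4, the nearest being 111. PKM-99860 measured 634 CPM in yap 4, the nearest being 506. In yap 1, eno2 measured 92.5 CPM, the nearest being 122.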

How the results depend on the processing

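Over the 21 alternatives for each of 48 results (16 members called at least once, in 3 comparisons), 943 of 1008 values kept their direction and side of the threshold, 38 lost the call, 19 gained one and 8 turned sign.

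In the yap mutant against WT, 4 members were called. The count was 2 with the 8 libraries alone, 8 with the replicate block, 12 with the block and 8 libraries alone (chosen after seeing the data; 17.7% of all genes), and 1 to 7 with a library left out (1 without WT 3; 2 without WT 2, yap 1 or yap 4; 7 without yap 3). In the yap taz mutant against WT, 15 were called, beside 27.7% of all genes, and 12 to 15 with a library left out. The shares of all genes in those fits are not given here. Between the mutants, where the numbers were not taken to pair the libraries, 3 were called, beside 4.18% of all genes. The count was 7 with the block (7.4% of all genes), 6 with DESeq2 (5.49%) and 2 to 5 with a library left out (5 without yap 4, 5.53%, or yap taz 1, 3.23%). By edgeR's quasi-likelihood test the block added GAPDH, ENO3, ldhbb and ALDOC-57661. All were higher in the yap taz mutant (log2 0.29, 0.29, 0.58 and 0.66, adjusted p = 0.0166, 0.0176, 0.0104 and 0.0259). Without the block their adjusted p was 0.1, 0.0918, 0.091 and 0.0531. Over all genes, the yap mutant against WT gave 1780 calls, 1163 with the 8 libraries alone, 2758 with the block, 3380 with the block and 8 libraries alone, and 942 to 3041 with a library left out; between the mutants 814 became 1443 with the block.

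Paralogue pairs without overlap numbered 2 in each comparison. With a library left out they numbered 2 to 3 in the yap mutant against WT, 2 to 6 in the yap taz mutant against WT (6 without WT 4) and 2 to 4 between the mutants.

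The values that turned sign were all uncalled, in the yap mutant against WT. For ldhbb they were -0.0133 without a filter and -0.00663 with limma-voom, -0.06 and -0.07 without WT 1 and WT 2, and -0.20 without yap 4, with 0.16 at most with a library left out. For ALDOA-11665 they were 0.0234 without WT 3 and 0.0219 without yap 4 (range -0.10 to 0.0234 with a library left out), and for pgam1a 0.0260 without yap 4 (range -0.11 to 0.0260). The cause was not tested. Depth limits the low rows most, and p-values cover only the spread between these libraries.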

Other observations

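The WT libraries were not alike in every member. GPI-103826 measured 4.16 CPM in WT 4 and 19.0 to 33.0 CPM in the other WT libraries, beside 6.05 to 8.77 CPM in the yap taz libraries. The major row GPI-12987 measured 294 CPM in WT 4, the highest of the 12 libraries.

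Shares of single members in the counts of their step were also taken, without a test. LDHB made up 60.9 ± 2.38% of the lactate dehydrogenase counts in WT (SD, n = 4), 66.7 ± 3.27% of them in the yap mutant and 74.3 ± 2.25% of them in the yap taz mutant. GAPDH made up 60.6 ± 1.51%, 63.1 ± 2% and 68.3 ± 2.27% of the counts of its step, and ENO3 50.1 ± 1.63%, 51.0 ± 2% and 56.3 ± 2.82% of the enolase counts.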
